A study of Homo sapiens with 24 samples.

Results

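ID1, ID2, ID3, ID4, SMAD6, SMAD7, SKIL, BAMBI, and TGFB2 are 9 of the 26645 genes counted in this series. They were chosen by name, as target and feedback genes and a ligand of BMP and TGF-beta signaling, and not by a cutoff on their values. Earlier results of these data were known when they were chosen. RNA was sequenced from MB468 cells (MDA-MB-468, a triple-negative breast cancer line whose proliferation depends on Met) and from MB468res-R8 cells (R8), a single Met-independent clone obtained from MB468 by long culture in homocysteine medium. Libraries come from cells of either line in Met+ medium, which held 100 µM L-methionine (0 h), and at 0.5, 2, and 12 h after transfer to Met-Hcy+ medium, which had no methionine and 370 µM DL-homocysteine, with 3 libraries in each of the 8 groups. Both media were built on DMEM with dialyzed serum, vitamin B12, glutamine, and cysteine, and no ligand or inhibitor of BMP or TGF-beta was added in any group. No library comes from cells moved to fresh Met+ medium, so the loss of Met, the presence of Hcy, the handling of the cultures, and the time since handling cannot be told apart. R8 is 1 clone, so a difference between R8 and MB468 cannot be told apart from a difference between clones.

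BMP and TGF-beta ligands bind pairs of type I and type II receptors, which phosphorylate SMAD1, SMAD5, and SMAD9 (BMP branch) or SMAD2 and SMAD3 (TGF-beta and activin branch). The phosphorylated SMADs join SMAD4 and act on genes in the nucleus, and among the genes they induce are brakes on the pathway itself: SMAD6 and SMAD7 block receptors, SKIL is a nuclear corepressor, and BAMBI is a receptor-like membrane protein without a kinase. ID1 to ID4 are the best known BMP targets in epithelial cells, and their proteins bind E proteins and keep them off DNA. ID genes, JUNB, and other immediate early genes are also known to respond to serum, growth factors, and stress, and MDA-MB-468 is known as a line that has lost SMAD4.

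The 24 libraries held 11745553 to 36496655 counts (median 20503827), and of the 26645 genes 14741 passed edgeR's expression filter, among them all 9 described here. Values below are normalised counts, which are deposited counts divided by each library's TMM-scaled size and multiplied by the mean of these sizes, unless raw counts are named. A gene is called higher or lower where the adjusted p of edgeR's quasi-likelihood test (Benjamini-Hochberg, over all 14741 genes) was under 0.05, and SE and 95% confidence intervals of log2 fold changes come from the same fit. Epithelial genes were abundant (EGFR at 28086 to 159306 raw counts, KRT5 at 21518 to 92603, EPCAM at 3553 to 11898), whereas PGR had 0 to 2, COL1A2 0 to 1, DCN 0 to 3, CD3E 0 to 2, and PTPRC 0 to 7 raw counts. Of the other markers, ESR1 had 83 to 598 raw counts, ERBB2 766 to 3297, COL1A1 313 to 2379, PDGFRB 1 to 15, CDH5 0 to 62, PECAM1 5 to 96, VWF 1 to 55, and CD68 41 to 255. MB468 replicate 2 at 2 h stood apart with 8251 raw counts of the small nuclear RNA RN7SK, against at most 357 in the other 23 libraries, and results at 2 h are given without it where they change. Nothing states that libraries of a group came from separate cultures, so the p-values measure the spread between these libraries, which may be technical, and fewer cells expressing a gene and less RNA per cell cannot be told apart in bulk RNA.

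Promoters of 5 of the genes are shown. ID1 and ID4 are among the genes that rose at 0.5 h in both lines, and SMAD6, SKIL, and BAMBI held sequence elements that SMADs are known to bind. ID2 and SMAD7 also rose at 0.5 h in both lines, and their promoters are not shown. The sequences run from 250 bases before to 50 bases after the RefSeq start on GRCh38.p14. They read 5′ to 3′ on the gene's own strand, which is the plus strand for all 5. The other genes lie at chr2:8678845-8684461 (ID2), chr1:23557926-23559501 (ID3), chr18:48919853-48950965 (SMAD7), and chr1:218345336-218444619 (TGFB2). Capitals mark TATAAA, the GC-rich SMAD element GGCGCC, the palindromic SMAD element GTCTAGAC, and the cAMP response element TGACGTCA, each searched on both strands.
ID1 (chr20:31605039-31605338): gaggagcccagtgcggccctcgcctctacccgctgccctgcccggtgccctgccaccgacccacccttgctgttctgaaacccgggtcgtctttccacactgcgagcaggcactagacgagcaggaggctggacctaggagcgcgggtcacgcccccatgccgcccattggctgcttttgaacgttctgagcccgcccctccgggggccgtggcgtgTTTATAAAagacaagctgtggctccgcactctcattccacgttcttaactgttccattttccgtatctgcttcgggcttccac
ID4 (chr6:19837120-19837419): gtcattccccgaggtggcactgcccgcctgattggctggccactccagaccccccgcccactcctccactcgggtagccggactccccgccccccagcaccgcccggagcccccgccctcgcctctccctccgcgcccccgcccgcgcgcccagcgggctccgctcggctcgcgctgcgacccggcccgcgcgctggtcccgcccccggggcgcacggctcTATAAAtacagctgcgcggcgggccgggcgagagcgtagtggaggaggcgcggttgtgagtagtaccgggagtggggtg
SMAD6 (chr15:66701986-66702285): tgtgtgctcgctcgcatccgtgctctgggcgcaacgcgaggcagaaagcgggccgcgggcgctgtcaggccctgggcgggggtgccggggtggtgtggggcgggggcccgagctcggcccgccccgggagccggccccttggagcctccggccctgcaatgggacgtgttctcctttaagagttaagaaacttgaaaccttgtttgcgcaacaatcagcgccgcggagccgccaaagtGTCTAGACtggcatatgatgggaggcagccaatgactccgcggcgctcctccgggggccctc
SKIL (chr3:170357465-170357764): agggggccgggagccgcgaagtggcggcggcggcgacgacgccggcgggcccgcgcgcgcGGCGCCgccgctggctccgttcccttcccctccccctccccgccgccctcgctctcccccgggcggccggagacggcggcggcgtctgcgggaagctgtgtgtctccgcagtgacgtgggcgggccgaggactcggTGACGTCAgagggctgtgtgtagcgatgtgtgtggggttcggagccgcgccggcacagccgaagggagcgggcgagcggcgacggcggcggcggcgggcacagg
BAMBI (chr10:28677271-28677570): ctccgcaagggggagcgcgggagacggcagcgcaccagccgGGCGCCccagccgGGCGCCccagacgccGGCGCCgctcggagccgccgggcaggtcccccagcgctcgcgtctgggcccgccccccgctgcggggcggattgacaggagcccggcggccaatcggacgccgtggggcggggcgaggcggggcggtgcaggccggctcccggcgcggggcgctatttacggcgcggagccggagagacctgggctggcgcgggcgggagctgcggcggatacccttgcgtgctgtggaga

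GGCGCC stood 3 times in the BAMBI promoter, at -209, -196, and -181 from the start, and 1 time in that of SKIL, at -190. Over all 35116 RefSeq promoters of this length, 19.2% hold it. GTCTAGAC, held by 0.202% of promoters, stood in SMAD6 at -12, and TGACGTCA, held by 1.85%, stood in SKIL at -54. TATAAA, held by 11.5%, stood in ID1 (at -31, and on the other strand at -33, overlapping it), in ID4 at -29, and in TGFB2 at -29. At the main starts of ID2, ID3, and SMAD7 none of these 4 motifs was found. E-boxes (CANNTG, 68.7% of promoters) stood in ID2, ID4, SMAD6, SMAD7, and TGFB2. A match is only a run of letters, and its absence from this window says nothing about binding.

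SMAD4, the partner shared by both branches, was at 1 to 10 raw counts in each of the 24 libraries of both lines, and did not pass the expression filter. In MB468 at 0 h its normalised counts were 4.49, 4.78, and 7.03, and in R8 at 0 h they were 3.97, 7.83, and 5.23. Per kilobase of transcript this is 0.619 in MB468 and 0.647 in R8, against 323 and 312 for SMAD1, 189.7 and 181 for SMAD5, and 235 and 130.4 for SMAD3. The gene next to it on chromosome 18, ELAC1, had 3 to 39 raw counts, and beyond it on that side ME2 had 825 to 2370. On the other side MEX3C had 671 to 4264 raw counts. These neighbors were named after their values were seen. All responses below were thus measured in cells whose SMAD4 RNA was close to 0 at every time, and the part of this in them was not tested.

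**Figure D1:**
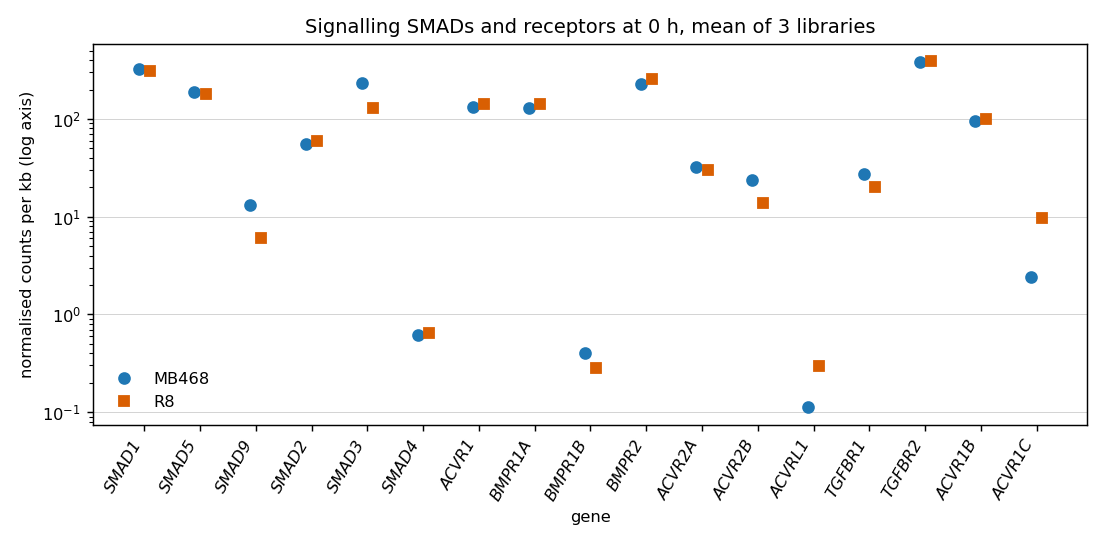
Mean normalised counts per kilobase (log axis) of the 6 signaling SMADs and of the type I and type II receptors in Met+ medium (0 h), in MB468 (circles) and R8 (squares), each the mean of 3 libraries. SMAD4 sits below 1 in both lines, near BMPR1B and ACVRL1, while SMAD1, BMPR1A, BMPR2, and TGFBR2 sit above 100.

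The receptors of both branches were expressed. Of the BMP receptors at 0 h, BMPR2 was at 229 ± 6.62 per kilobase in MB468 and 256 ± 5.17 in R8 (SD, n = 3), BMPR1A at 129.7 and 143, and ACVR1 at 132 and 143. BMPR1B had 0 to 23 raw counts over the 24 libraries. ACVRL1, the endothelial type I receptor, was not tested. On the TGF-beta side TGFBR2 was at 386 and 389.7 per kilobase, and its type I partner TGFBR1 at 27.2 and 20.3. The activin receptors ACVR1B (96.4 and 99.0), ACVR2A (32.5 and 29.8), and ACVR2B (23.6 and 13.9) were all below TGFBR2 per kilobase. SMAD2 was at 55.5 and 59.7, a value that the very long annotated transcript lowers, and SMAD9 was at 13.2 and 6.11.

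In Met+ medium the clearest difference between the lines was in ID4 and ID2, both lower in R8, with SMAD7 lower as well and ID3 and BAMBI slightly higher. In all, 3 of the 9 genes were called higher in R8 (ID3, BAMBI, TGFB2) and 4 lower (ID2, ID4, SMAD6, SMAD7). This comparison called 53.5% of all genes (26.4% higher and 27.1% lower) tested, so a call in it is common. ID4 was at 1541, 1419, and 1630 in the 3 MB468 libraries and at 231, 289.7, and 235 in the 3 R8 libraries. It was 6.08-fold lower in R8 (log2 fold change -2.60 ± 0.10, adjusted p = 8.83e-17). ID2 was at 93.3, 96.4, and 104 in MB468 and at 38.9, 43.6, and 32.7 in R8, with no overlap, and was 2.52-fold lower (log2 -1.33 ± 0.18, adjusted p = 3.64e-08). SMAD7 was at 286, 295, and 304 in MB468 and 136, 145, and 175 in R8 (log2 -0.97 ± 0.11, adjusted p = 2.86e-10). BAMBI was at 411, 388, and 385 in MB468 and 516, 609.7, and 518 in R8 (log2 0.47 ± 0.0822, adjusted p = 6.15e-06). The other 3 calls were under 0.33 in size on the log2 scale: ID3 0.32 (adjusted p = 0.0228), TGFB2 0.23 (adjusted p = 0.0159), and SMAD6 -0.27 (adjusted p = 0.0427). ID3 was not called without MB468 replicate 1 or R8 replicate 2 (adjusted p = 0.0801 and 0.0619). TGFB2 was not called without MB468 replicate 1 or 3 or R8 replicate 3 (adjusted p = 0.0669, 0.0551, and 0.0808), and SMAD6 without replicate 1 or 2 of either line (adjusted p = 0.061 to 0.185). With spike-in totals as library sizes, which moved the median of all genes by -0.31, the calls of BAMBI (log2 0.16, adjusted p = 0.353) and ID3 (log2 0.02, adjusted p = 0.922) were lost and TGFB2 turned to -0.07 (adjusted p = 0.657). ID1 (0.30, 95% interval -0.13 to 0.73) and SKIL (0.06, -0.07 to 0.19) were not called.

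**Figure D2:**
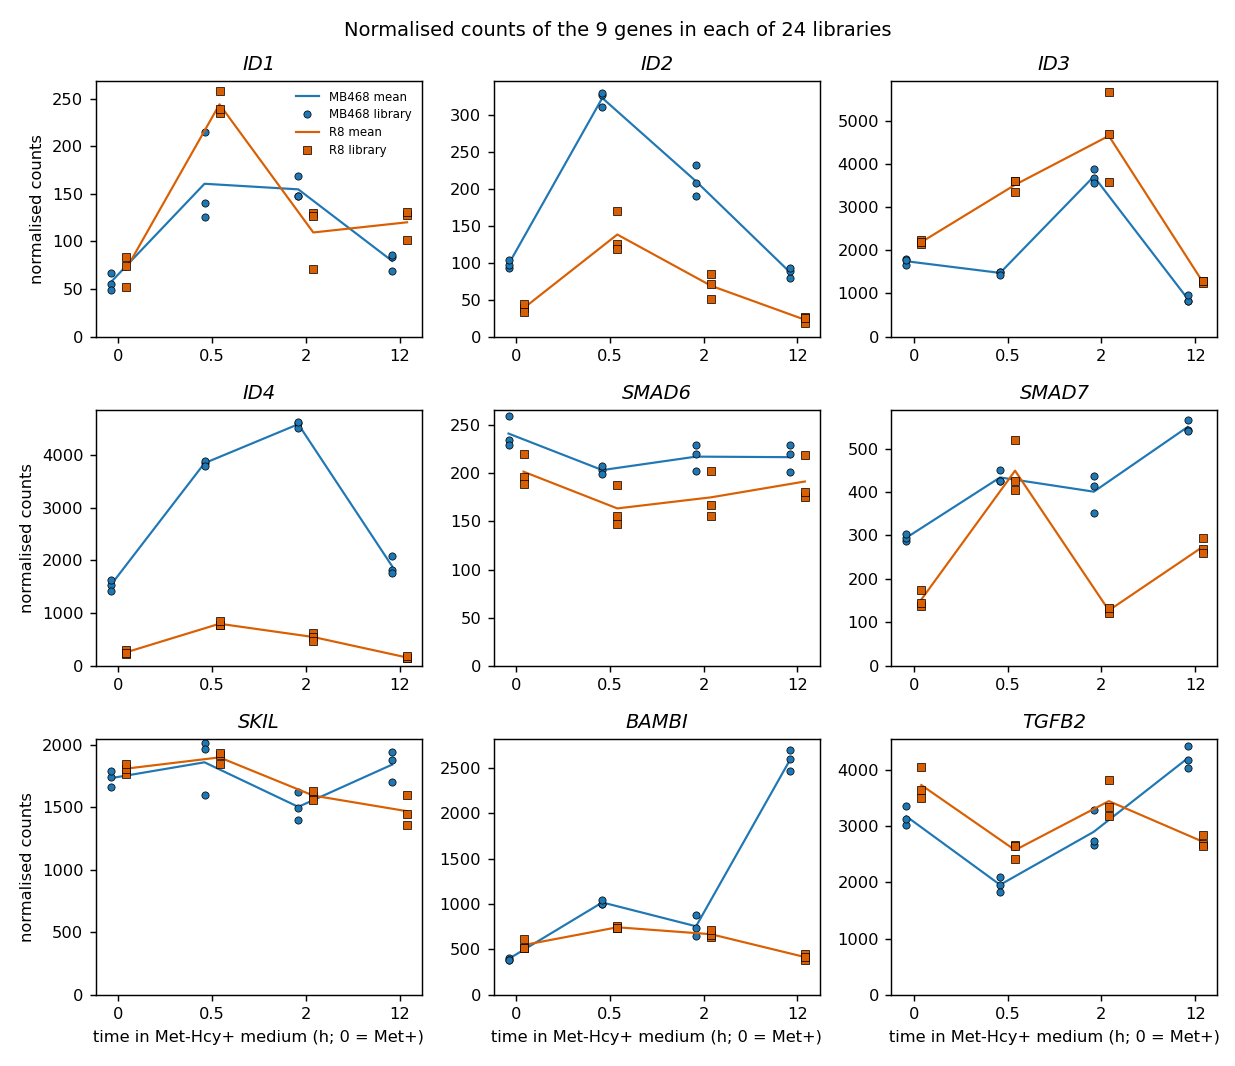
Normalised counts (y axis, from 0) of the 9 genes against time in Met-Hcy+ medium (0 h is Met+ medium, times evenly spaced), with 1 point per library (MB468 circles, R8 squares) and lines through the means of 3 libraries. The ID genes peak at 0.5 or 2 h in both lines, BAMBI reaches 2463 to 2701 at 12 h in MB468, above every other library, and SMAD6 and SKIL stay within a narrow band.

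At 0.5 h of Met-Hcy+ medium ID1, ID2, and ID4 rose in both lines by 2.52-fold or more, ID3 rose in R8, and SMAD7 and BAMBI rose in both lines, by unequal amounts. In MB468 5 of the 9 genes were called higher and 1 lower, where 33.9% of all genes (17.6% higher and 16.4% lower) were called. In R8 6 were called higher and 2 lower, against 33.7% of all genes (17.4% higher and 16.3% lower). Both time courses share their 0 h libraries across all times, so the responses of a line at 0.5, 2, and 12 h are not independent of each other.

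ID1, the ID gene most often used as a BMP readout, had the lowest level of the 4 together with ID2. In MB468 ID1 was at 66.4, 55.8, and 49.2 at 0 h and at 126, 141, and 216 at 0.5 h. R8 libraries went from 74.5, 83.9, and 52.3 at 0 h to 258, 235, and 239.5 at 0.5 h. In both lines every library at 0.5 h was above every library at 0 h, by 2.68-fold in MB468 (log2 1.42 ± 0.20, adjusted p = 3.75e-07) and 3.44-fold in R8 (log2 1.78 ± 0.19, adjusted p = 8.26e-10). At 2 h ID1 stayed at 148, 148, and 169 in MB468, with a step from 0.5 h of 0.00 (95% interval -0.37 to 0.37). In R8 it fell from 0.5 h to 130.1, 127, and 71.5 (log2 -1.12 ± 0.18, adjusted p = 2.33e-06), and 1 of these libraries lay within the range at 0 h. The call of ID1 against 0 h in R8 at 2 h (log2 0.66, adjusted p = 0.0458) was lost when R8 replicate 1 or 2 at 2 h was left out (adjusted p = 0.223 and 0.339), when R8 replicate 1 or 3 at 0 h was left out (adjusted p = 0.104 and 0.288), with a replicate block (adjusted p = 0.0724), and with spike-in totals (log2 0.63, adjusted p = 0.124). By 12 h ID1 was at 69.0, 84.1, and 85.5 in MB468 (log2 0.45 against 0 h, adjusted p = 0.0445) and at 128, 101, and 131 in R8 (log2 0.76, adjusted p = 0.000954). The MB468 call at 12 h did not hold with DESeq2's size factors (adjusted p = 0.0571), with spike-in totals (log2 0.21, adjusted p = 0.388), with a replicate block (adjusted p = 0.0587), or without MB468 replicate 2 or 3 at 0 h (adjusted p = 0.12 and 0.167) or at 12 h (adjusted p = 0.101 and 0.145).

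ID2 followed a sharp early rise and a return. In MB468 it was at 93.3, 96.4, and 104 at 0 h, 328, 331, and 312 at 0.5 h, and 208, 190.4, and 233 at 2 h. At 12 h it was back at 79.4, 89.5, and 93.2. R8 libraries were lower at each time, with 38.9, 43.6, and 32.7 at 0 h, 170.1, 126, and 119 at 0.5 h, 71.4, 84.8, and 50.5 at 2 h, and 25.9, 18.2, and 24.5 at 12 h. The rise at 0.5 h was 3.32-fold in MB468 (log2 1.73 ± 0.15, adjusted p = 7.4e-13) and 3.61-fold in R8 (log2 1.85 ± 0.17, adjusted p = 1.37e-11), and the difference between the lines in this response was 0.12 (95% interval -0.34 to 0.58). At 2 h ID2 was still 2.17-fold above 0 h in MB468 (adjusted p = 2.82e-07) and 1.84-fold in R8 (adjusted p = 0.00154), the latter call being lost without R8 replicate 2 at 2 h (log2 0.67, adjusted p = 0.0856). At 12 h R8 was below its 0 h level (1.66-fold lower, adjusted p = 0.00413), while MB468 was not called (log2 -0.16, 95% interval -0.47 to 0.15). The test of the difference between those 2 responses gave -0.57 (adjusted p = 0.0674), which did not pass. ID2 has a processed pseudogene, ID2B, on chromosome 3 and overlaps an antisense gene, and TGFB2 also overlaps one, so reads of these pairs may be shared, since the kit keeps no strand.

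ID3, by far the most abundant ID gene per kilobase, had its highest mean at 2 h in both lines. MB468 libraries had 1655, 1802, and 1779 at 0 h and 1503, 1496, and 1425 at 0.5 h, a step that was not called (log2 -0.24, 95% interval -0.49 to 0.01) although the groups did not overlap. DESeq2's Wald test (adjusted p = 0.0485), spike-in totals as library sizes (adjusted p = 0.00525), a fit without the low-count filter (adjusted p = 7.55e-05), and a fit to these 6 libraries alone (adjusted p = 0.00048) did call it lower. In R8 ID3 rose at 0.5 h, from 2137, 2240, and 2184 to 3598, 3346, and 3599 (1.61-fold, adjusted p = 7.85e-05). At 2 h both lines were high, MB468 at 3886, 3672, and 3566 and R8 at 4679, 5674, and 3589. The rise over 0 h at 2 h was 2.13-fold in MB468 (log2 1.09 ± 0.11, adjusted p = 1.4e-06) and 2.14-fold in R8 (log2 1.10 ± 0.11, adjusted p = 3.08e-06). With only the R8 libraries of 0 and 2 h in the fit, the R8 call was lost (adjusted p = 0.0786), and replicate 3 was the lowest and replicate 2 the highest of the 3 libraries at 2 h. The R8 step from 0.5 to 2 h (log2 0.41 ± 0.11, adjusted p = 0.00513) lay between groups that overlap, and its call was lost with spike-in totals (log2 0.32, adjusted p = 0.0706) and with only these 6 libraries in the fit (adjusted p = 0.174). At 12 h ID3 was below its starting level in both lines, at 835, 824, and 973 in MB468 (1.98-fold lower, adjusted p = 7.28e-07) and 1291, 1238, and 1282 in R8 (1.72-fold lower, adjusted p = 1.39e-05). From 2 to 12 h it fell by 4.21-fold in MB468 and 3.68-fold in R8.

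ID4 set the lines further apart than the other ID genes did, although ID2 was also lower in R8 at each time. MB468 libraries went from 1541, 1419, and 1630 at 0 h to 3853, 3894, and 3795 at 0.5 h and 4608, 4523, and 4630 at 2 h, then to 2085, 1822, and 1765 at 12 h. R8 libraries were at 231, 289.7, and 235 at 0 h, 765, 768, and 857 at 0.5 h, 621, 550.1, and 464 at 2 h, and 139.5, 138, and 189 at 12 h. The highest R8 library at any time was thus below the lowest MB468 library at any time. The rise at 0.5 h was 2.52-fold in MB468 (log2 1.34 ± 0.0781, adjusted p = 1.05e-12) and 3.17-fold in R8 (log2 1.66 ± 0.11, adjusted p = 5.95e-12), with a difference between the lines of 0.33 (95% interval 0.05 to 0.61, adjusted p = 0.265). From 0.5 to 2 h ID4 fell in R8 (log2 -0.53 ± 0.0947, adjusted p = 7.09e-05), whereas MB468 was slightly higher (log2 0.25 ± 0.0745, adjusted p = 0.0102), a call that was lost with spike-in totals (log2 0.05, adjusted p = 0.798). At 12 h MB468 was 1.24-fold above 0 h (adjusted p = 0.00107, and log2 0.07 with adjusted p = 0.665 by spike-in totals) and R8 was 1.61-fold below it (adjusted p = 0.000131). The responses at 12 h differed between the lines by -0.997 ± 0.157 (adjusted p = 7.68e-06). ID4 is the one gene of the 9 for which all 7 neighboring pairs in the order of its 8 group means were called different.

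Summed over the 4 genes, ID levels per kilobase at 0 h were 2366 ± 76.1 in MB468 and 2468 ± 72.9 in R8 (SD, n = 3). ID3 made up 77.6% ± 1.43 of the sum in MB468 and 93.3% ± 0.95 in R8, and ID4 16.7% ± 1.22 and 2.63% ± 0.261. In MB468 the share of ID4 reached 33.6% ± 0.216 at 0.5 h and 31.4% ± 3.47 at 12 h, with ID3 at 52.5% ± 1.28 and 59.1% ± 2.99. R8 kept ID3 between 86.8% and 94.1% of the sum at all 4 times. The sum was highest at 2 h, at 5407 ± 160 in MB468 and 5197 ± 1150 in R8, and lowest at 12 h, at 1560 ± 73.6 and 1517 ± 53.2. The sums and shares were not tested.

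**Figure D3:**
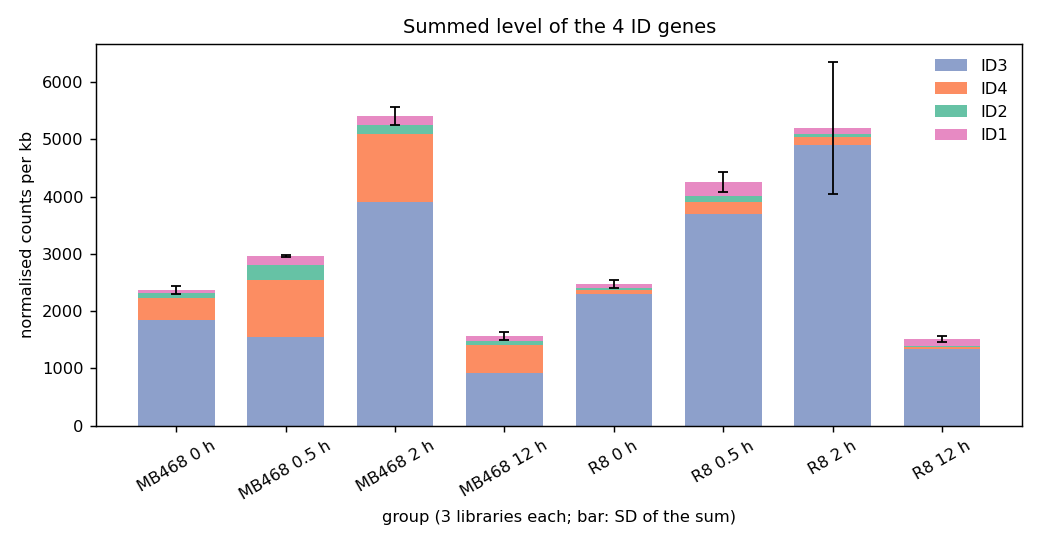
Normalised counts per kilobase of ID3, ID4, ID2, and ID1 stacked for each of the 8 groups (means of 3 libraries), with the SD of the 4-gene sum as error bar. The sum goes from 2366 to 5407 and then 1560 in MB468 and from 2468 to 5197 and then 1517 in R8 (0, 2, and 12 h), and the ID4 layer is thick in MB468 and thin in R8.

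Among the inhibitory SMADs, SMAD7 responded early in R8 and SMAD6 hardly moved. SMAD7, which blocks receptors of both branches, was at 286, 295, and 304 in MB468 at 0 h, 425, 426, and 450.1 at 0.5 h, 352, 414, and 437 at 2 h, and 543, 540.4, and 567 at 12 h. In R8 it was at 136, 145, and 175 at 0 h and 519, 425, and 404 at 0.5 h, back at 130.1, 120.4, and 132 at 2 h, and at 269, 259, and 294 at 12 h. R8 libraries at 0.5 h thus overlapped those of MB468 at 0.5 h after starting far below them. The rise at 0.5 h was 3-fold in R8 (log2 1.58 ± 0.10, adjusted p = 2.8e-16) and 1.47-fold in MB468 (log2 0.55 ± 0.0949, adjusted p = 8.62e-06). From 0.5 to 2 h SMAD7 fell 3.57-fold in R8 (adjusted p = 3.69e-18), while MB468 showed -0.11 (95% interval -0.30 to 0.08). At 12 h it was 1.87-fold above 0 h in MB468 (adjusted p = 1.45e-11) and 1.82-fold in R8 (adjusted p = 3.8e-09), and the lines' responses differed by -0.04 (95% interval -0.32 to 0.25). Scaled by spike-in totals, the MB468 rise was not called at 0.5 h (log2 0.34, adjusted p = 0.093) or 2 h (log2 0.02, adjusted p = 0.927), where the median of all genes moved by -0.20 and -0.42.

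SMAD6, the inhibitor that acts mainly on the BMP branch, ranged from 198.9 to 260.2 over the 12 MB468 libraries and from 148 to 219.7 over the 12 R8 libraries. Of its 6 responses 1 was called, the lower level in R8 at 0.5 h (-0.30, adjusted p = 0.0428), and that call did not hold without the low-count filter (adjusted p = 0.0716), with spike-in totals (adjusted p = 0.39), or in any of 4 fits that left out 1 library: R8 replicate 1 or 3 at 0 h (adjusted p = 0.0671 and 0.158), or replicate 1 or 2 at 0.5 h (adjusted p = 0.145 and 0.176). Spike-in totals called SMAD6 lower in MB468 at 0.5, 2, and 12 h (log2 -0.46, -0.58, and -0.40), or -0.26, -0.17, and -0.17 relative to the median of all genes. None of the 7 neighboring pairs in the order of its group means was called different.

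SKIL, the corepressor SnoN, moved within a narrow range. Its libraries ranged from 1399 to 2011 in MB468 and from 1359 to 1933 in R8. It was called lower at 12 h in R8 (log2 -0.30 ± 0.0651, adjusted p = 0.000156), from 1767, 1808, and 1849 at 0 h to 1359, 1600, and 1445, and at 2 h in MB468 (log2 -0.21 ± 0.0673, adjusted p = 0.0285). The R8 call at 12 h was lost with spike-in totals (log2 -0.27, adjusted p = 0.0886). The MB468 call was lost without MB468 replicate 2 or 3 at 0 h (adjusted p = 0.0883 and 0.0867) or replicate 1 or 3 at 2 h (adjusted p = 0.165 and 0.0919), and without the library that stands apart it held (log2 -0.26, adjusted p = 0.0126). From 0.5 to 2 h SKIL was called lower in MB468 (log2 -0.33 ± 0.0675, adjusted p = 0.000215), between groups that overlap. It was also called lower in R8 over this step (log2 -0.26 ± 0.0648, adjusted p = 0.00194), but not with spike-in totals (adjusted p = 0.0508). From 2 to 12 h it was called higher in MB468 (log2 0.30 ± 0.0661, adjusted p = 0.000174) and not called in R8 (log2 -0.12, adjusted p = 0.115). None of the 7 neighboring pairs in the order of its 8 group means was called different.

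BAMBI, the pseudoreceptor, gave the largest change of the 9 genes. MB468 libraries held 411, 388, and 385 at 0 h, 1003, 1005, and 1046 at 0.5 h, 741, 649, and 875 at 2 h, and 2701, 2463, and 2596 at 12 h. R8 libraries held 516, 609.7, and 518 at 0 h, 741, 756, and 736 at 0.5 h, 637, 654, and 712 at 2 h, and 378, 451, and 419 at 12 h. MB468 thus rose early, dipped at 2 h, and was highest at 12 h, where all 3 libraries were above any other library of the series. R8 was lowest at 12 h. BAMBI was 6.55-fold higher at 12 h in MB468 (log2 2.71 ± 0.0753, adjusted p = 4.47e-29) and 1.32-fold lower in R8 (log2 -0.40 ± 0.0816, adjusted p = 5.25e-05). The difference between the lines in this response was -3.11 ± 0.11 on the log2 scale (adjusted p = 1.8e-24). At 0.5 h the rise was 2.57-fold in MB468 (adjusted p = 1.13e-17) and 1.36-fold in R8 (adjusted p = 1.22e-05). At 2 h it was 1.93-fold in MB468 (adjusted p = 6.47e-12, and log2 1.03 without the library that stands apart). The R8 call at 2 h (log2 0.28, adjusted p = 0.0237) was lost without R8 replicate 1 or 3 at 0 h (adjusted p = 0.187 and 0.152) or replicate 2 or 3 at 2 h (adjusted p = 0.0784 and 0.127), and with spike-in totals (log2 0.24, not called).

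TGFB2, the one ligand among the 9, fell first and recovered. In MB468 it was at 3022, 3362, and 3127 at 0 h, 2092, 1945, and 1824 at 0.5 h, 2663, 3286, and 2741 at 2 h, and 4411, 4172, and 4022 at 12 h. In R8 it was at 3500, 3633, and 4046 at 0 h, 2655, 2645, and 2411 at 0.5 h, 3337, 3177, and 3809 at 2 h, and 2841, 2685, and 2637 at 12 h. At 0.5 h it was 1.61-fold lower in MB468 (log2 -0.69 ± 0.0802, adjusted p = 5.2e-07) and 1.45-fold lower in R8 (log2 -0.53 ± 0.0781, adjusted p = 1.2e-05). At 2 h neither line was called against 0 h, although MB468 without replicate 2 at 2 h was (log2 -0.23, adjusted p = 0.0302). At 12 h the lines had parted, MB468 1.32-fold above 0 h (adjusted p = 6.71e-05) and R8 1.37-fold below it (adjusted p = 3.39e-05), a difference of -0.86 ± 0.11 (adjusted p = 7.02e-07). By spike-in totals the MB468 value at 12 h was log2 0.17 (adjusted p = 0.242), or 0.40 relative to the median of all genes.

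**Figure D4:**
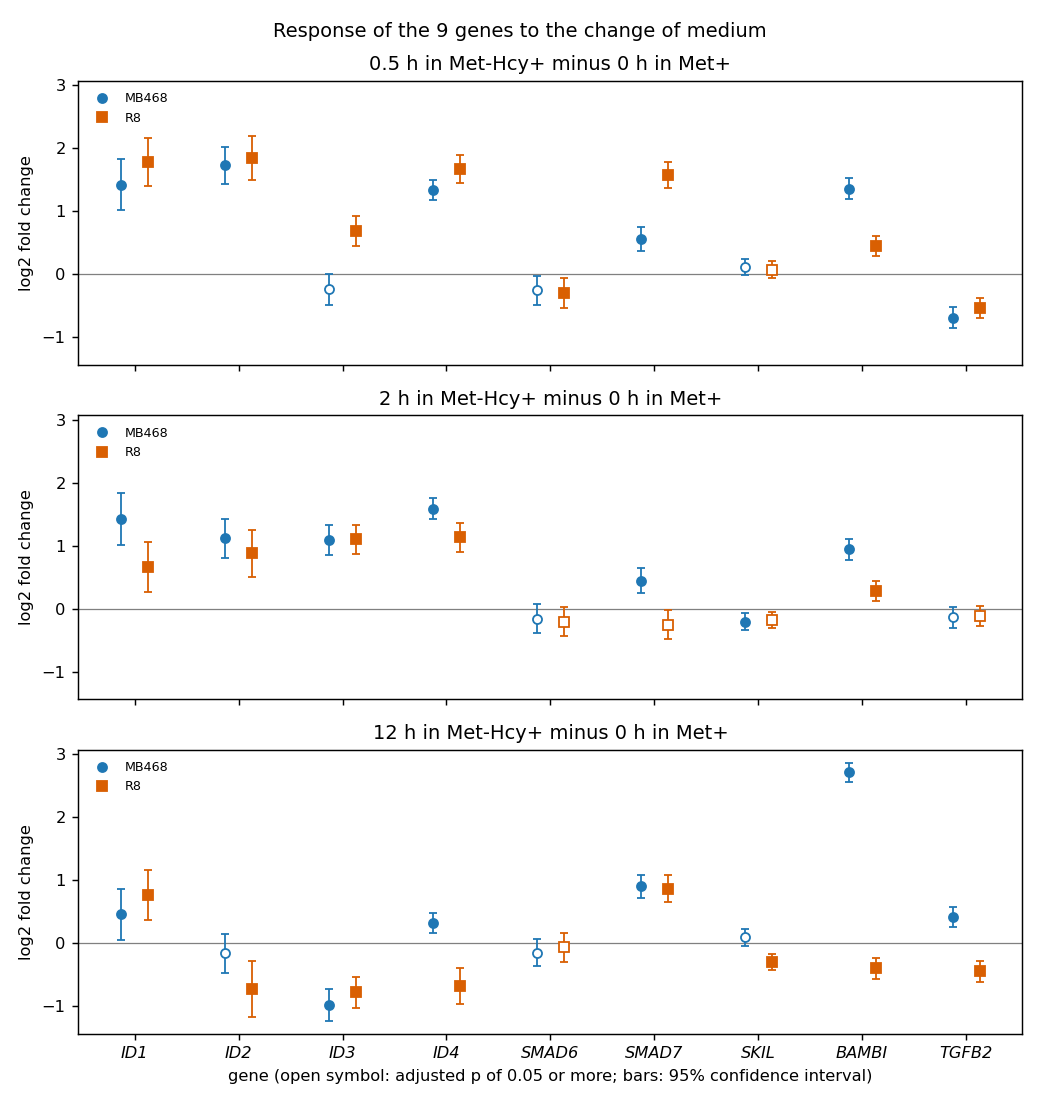
log2 fold change (y axis) of each of the 9 genes at 0.5, 2, and 12 h in Met-Hcy+ against 0 h in Met+ medium, for MB468 (circles) and R8 (squares), with 95% confidence intervals; open symbols have an adjusted p of 0.05 or more. ID1, ID2, and ID4 are above 0 in both lines at 0.5 and 2 h, and BAMBI at 12 h stands at 2.71 in MB468 and -0.40 in R8.

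Calls among all genes were rarest at 2 h, and most of the 9 genes were called there. In MB468 at 2 h 6 genes were called higher (ID1, ID2, ID3, ID4, SMAD7, BAMBI) and 1 lower (SKIL), where 16.3% of all genes (8.88% higher and 7.47% lower) were called. In R8 at 2 h 5 were called, all of them higher (the 4 ID genes and BAMBI), where 4.37% of all genes (2.52% higher and 1.85% lower) were called, the count falling to 2 without R8 replicate 2 at 2 h. At 12 h 6 genes were called in MB468 (5 higher, 1 lower) against 70.8% of all genes (36.1% higher and 34.7% lower). In R8 8 were called (2 higher, 6 lower) against 61.3% of all genes (30.2% higher and 31.1% lower), so that calls at 12 h were common throughout. The 9 genes had a median log2 fold change of 0.55, 0.95, and 0.31 in MB468 at 0.5, 2, and 12 h and 0.69, 0.28, and -0.40 in R8, while the median of all genes tested lay between -0.02 and 0.01. From 0.5 to 2 h 3 of the 9 genes were called higher and 3 lower in MB468, against 32.7% of all genes (16.3% higher and 16.5% lower), and 2 higher and 5 lower in R8, against 35.3% of all genes (17.4% higher and 17.9% lower). From 2 to 12 h 4 were called higher and 4 lower in MB468, against 69.7% of all genes (34.6% higher and 35.1% lower), and 1 higher and 5 lower in R8, against 62.5% of all genes (30.7% higher and 31.8% lower).

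The test of the difference between the lines in each response, R8 minus MB468, called 3 of the 9 genes at 0.5 h, where 2.9% of all genes (1.2% higher and 1.7% lower) were called. These were SMAD7 (1.03 ± 0.14, adjusted p = 2.91e-06) and ID3 (0.92 ± 0.16, adjusted p = 0.0025), which rose more in R8, and BAMBI (-0.92 ± 0.11, adjusted p = 2.52e-07), which rose more in MB468. With spike-in totals as library sizes the BAMBI value was -0.66 and not called (adjusted p = 0.0975). At 2 h it called 2, against 5.07% of all genes (2.19% higher and 2.88% lower): SMAD7 (-0.70 ± 0.15, adjusted p = 0.00218) and BAMBI (-0.66 ± 0.11, adjusted p = 7.39e-05), both lower in R8 relative to MB468. Scaled by spike-in totals, neither of these 2 was called (adjusted p = 0.264 and 0.272). At 12 h it called 4, against 56.5% of all genes (26.2% higher and 30.3% lower): BAMBI, ID4, TGFB2, and SKIL (-0.39 ± 0.0908, adjusted p = 0.000421), all in the direction of R8 below MB468. The SKIL call was lost with spike-in totals (log2 -0.13, adjusted p = 0.622), which called ID3 (log2 0.47, adjusted p = 0.0325). ID1 was not called at any time, with 0.36 (95% interval -0.20 to 0.92) at 0.5 h, -0.77 (-1.34 to -0.19) at 2 h, and 0.31 (-0.26 to 0.88) at 12 h. Without the low-count filter its 2 h difference was called (adjusted p = 0.031). The difference of ID4 at 2 h (-0.46, adjusted p = 0.0551) was just over the threshold. DESeq2's Wald test (adjusted p = 0.00488), no low-count filter (4.6e-05), 10 counts in each library (0.0394), and only the libraries compared (0.0394) called it. So did fits without MB468 replicate 3 at 0 h (0.0486) or R8 replicate 1 at 2 h (0.0139). Spike-in totals did not (log2 -0.08, adjusted p = 0.757).

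**Figure D5:**
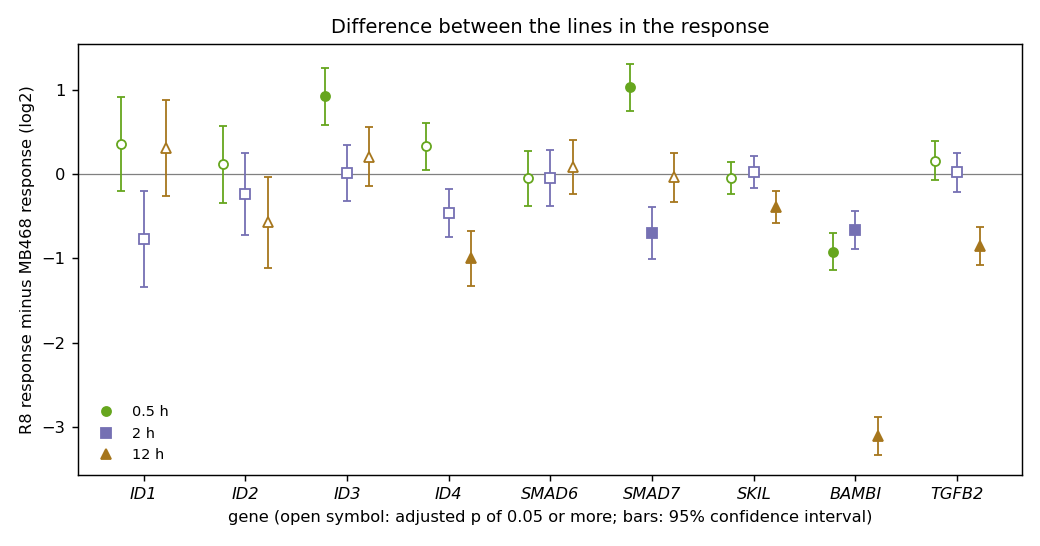
Difference between the responses of the lines (R8 minus MB468, log2, y axis) for each gene at 0.5 h (circles), 2 h (squares), and 12 h (triangles), with 95% confidence intervals; open symbols have an adjusted p of 0.05 or more. BAMBI lies below 0 at all 3 times and reaches -3.11 at 12 h, and SMAD7 goes from 1.03 at 0.5 h to -0.70 at 2 h.

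In the order of their 8 group means, 27 of 63 neighboring pairs were called different over the 9 genes, in contrasts that called between 4.37% and 76.5% of all genes. For ID1 the lowest groups, MB468 at 0 h, R8 at 0 h, and MB468 at 12 h, were not called different from neighbor to neighbor. The highest, R8 at 0.5 h, lay above MB468 at 0.5 h (adjusted p = 0.00186). ID2 was lowest in R8 at 12 h and highest in MB468 at 0.5 h, with 5 of 7 pairs called. ID3 was lowest in MB468 at 12 h and highest in R8 at 2 h, with 4 of 7. SMAD7 was lowest in R8 at 2 and 0 h, which did not differ (adjusted p = 0.304), and highest in MB468 at 12 h, with 3 of 7. For BAMBI MB468 at 0 h and R8 at 12 h, the lowest groups, were not called different (adjusted p = 0.479), and 4 of 7 pairs were called. TGFB2 was lowest in MB468 and then R8 at 0.5 h (adjusted p = 0.000421) and highest in MB468 at 12 h, with 2 of 7.

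Other genes of the pathway were followed in lists that were drawn up with earlier results of these data known. Of 14 tested ligands besides TGFB2, 2 were called higher and 3 lower at 0.5 h in MB468, 2 and 5 in R8, and 4 and 5 at 12 h in MB468, while 10 were called at 12 h in R8, all of them lower. Of all genes 33.9%, 33.7%, 70.8%, and 61.3% were called in these comparisons, 31.1% lower in R8 at 12 h, where the ligands had a median log2 fold change of -0.66 against -0.02 over all genes. BMP4, a ligand that activates SMAD1 and SMAD5, moved with BAMBI in direction at 0.5 and 12 h in MB468. It did not do so at 2 h in MB468 or at 12 h in R8. Its means were 23.2, 52.9, 14.0, and 196 at 0, 0.5, 2, and 12 h in MB468 and 10.1, 37.9, 6.79, and 15.7 in R8. It rose at 0.5 h in both lines (log2 1.16 ± 0.25 in MB468 and 1.99 ± 0.31 in R8, adjusted p = 0.000267 and 1.43e-06) and at 12 h in MB468 (log2 3.05 ± 0.23, adjusted p = 2.14e-15). R8 was not called at 12 h (log2 0.73, adjusted p = 0.0657), and the 12 h response differed between the lines by -2.31 ± 0.44 (adjusted p = 1.87e-05). BMP6 went the other way at 0.5 h, with log2 -1.31 ± 0.18 in MB468 and -2.56 ± 0.19 in R8 (adjusted p = 1.43e-07 and 2.91e-14). INHBE, which encodes an inhibin beta subunit, went from a mean of 121 to 237 at 12 h in MB468 and from 141 to 22.5 in R8 (difference between the lines -3.66 ± 0.47, adjusted p = 2.34e-06). NODAL, INHBA, and BMP2 were higher in R8 at 0 h (log2 1.54, 1.19, and 1.01) and BMP4 was lower (-1.32).

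Of 12 tested receptors, 9 were called higher and 2 lower at 12 h in MB468, where 70.8% of all genes (36.1% higher and 34.7% lower) were called, and 7 and 3 in R8, against 61.3% of all genes (30.2% higher and 31.1% lower). TGFBR3, the coreceptor betaglycan, was 3.08-fold higher in R8 at 0 h and rose at 12 h in both lines (log2 1.09 in MB468 and 0.28 in R8, adjusted p = 1.87e-11 and 0.0117), as did ACVR2A (log2 1.08 and 0.76, adjusted p = 1.17e-10 and 1.41e-06). ACVR1C was 4.13-fold higher in R8 at 0 h and fell at 0.5 h and 12 h in R8 (log2 -1.56 and -1.99), while MB468 was not called at these times (log2 0.44 and 0.12). BMPR1B, near 0 at 0 h, reached a mean of 8.96 at 12 h in MB468 and 20.3 in R8. It is among the 9 and 7 receptors called higher at 12 h. BMPR1B had at most 6 raw counts in any library at 0, 0.5, and 2 h, and 16 to 23 in R8 at 12 h. It thus passed the expression filter through 12 h libraries, so its 12 h calls, and the counts that include them, were partly fixed in advance. Of the 5 tested signaling SMADs, 2 were called lower at 0.5 h in MB468, where 16.4% of all genes were called lower. At 12 h 3 were called higher and 1 lower in MB468, and 2 and 1 in R8. Of all genes 70.8% (36.1% higher and 34.7% lower) and 61.3% (30.2% higher and 31.1% lower) were called there. SMAD3 fell at 0.5 h in MB468 (log2 -1.28 ± 0.0762, adjusted p = 5.55e-17) and less in R8 (log2 -0.23, adjusted p = 0.0206), with a difference between the lines of 1.06 ± 0.11 (adjusted p = 1.11e-08), and SMAD9 was lower in R8 at 0 h (log2 -1.10, adjusted p = 8.57e-06).

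Of 15 tested brakes other than the members, 7 were called higher and 4 lower at 0.5 h in MB468, where 33.9% of all genes (17.6% higher and 16.4% lower) were called, and 4 and 5 in R8, against 33.7% of all genes (17.4% higher and 16.3% lower). NEDD4L, a ubiquitin ligase for SMADs, and PMEPA1, a membrane protein that traps SMAD2 and SMAD3, fell at 0.5 h in both lines (NEDD4L log2 -1.33 in MB468 and -1.14 in R8, PMEPA1 -1.08 and -1.49), and both rose again from 0.5 to 2 h. TGIF1, a corepressor, rose at 0.5 h in both lines (log2 0.47 in MB468 and 1.04 in R8, adjusted p = 4.64e-12 and 2.48e-22), more so in R8 (difference 0.57 ± 0.0602, adjusted p = 1.56e-08). At 2 h it was higher still in MB468 (log2 0.93) and not called in R8 (-0.07). NOG, the secreted BMP antagonist noggin, was at a mean of 19.7 at 0 h and 4.25 at 12 h in MB468 (log2 -2.32 ± 0.44, adjusted p = 1.33e-05) and at 40.5 and 57.5 in R8. The 12 h response of NOG differed between the lines by 2.84 ± 0.54 (adjusted p = 1.78e-05), the sign opposite to that of BMP4 and BAMBI. NOG was scarce, with 3 to 62 raw counts over the 24 libraries and 3 to 7 in MB468 at 12 h.

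Of 24 other tested genes known as SMAD targets, 12 were called higher and 2 lower at 2 h in MB468, against 16.3% of all genes (8.88% higher and 7.47% lower), and 5 and 4 in R8, against 4.37% of all genes (2.52% higher and 1.85% lower). Their median log2 fold change at 2 h was 0.51 in MB468 and 0.04 in R8. At 0.5 h JUNB and BHLHE40 rose most in both lines (JUNB log2 2.28 in MB468 and 1.84 in R8, BHLHE40 2.1 and 2.12), and KLF10, a TGF-beta inducible repressor, rose alongside them (log2 1.43 in MB468 and 1.55 in R8, difference 0.12, adjusted p = 0.576). At 2 h the R8 response of JUNB was below that of MB468 by -1.99 ± 0.0933 (adjusted p = 3.88e-15) and that of KLF10 by -1.65 ± 0.0828 (adjusted p = 4.46e-18), the same sign as SMAD7 and BAMBI at that time. At 12 h 9 were called higher and 10 lower in MB468, and 3 and 13 in R8, where 70.8% and 61.3% of all genes were called. CYR61, CTGF, CDKN1A, and DLX2 fell at 12 h in both lines, by log2 -0.91, -0.62, -1.49, and -1.34 in MB468 and -2.80, -2.37, -2.41, and -2.58 in R8. The fall was larger in R8 for all 4 (differences -1.90, -1.75, -0.92, and -1.24, adjusted p = 4.97e-17, 2.97e-09, 0.00162, and 0.000422). Other genes of this list went up: MSX2, TSC22D1, and KLF10 were among those called higher at 12 h in MB468 (log2 1.41, 1.27, and 1.22). MSX1 was scarce, with 0 to 26 raw counts.

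Of the E proteins that ID proteins bind, TCF3 (E2A) was abundant, at 2014 to 7758 raw counts. TCF4 had 0 to 24 raw counts, with a mean of 17.7 at 0 h in MB468 and 0 in R8, and TCF12 had 0 to 2 and was not tested. Of the 5 tested genes of this list, 2 were called at 0.5 h in each line, all of them higher (17.6% and 17.4% of all genes were called higher). HES1, another helix-loop-helix repressor, rose at 0.5 h by log2 2.14 ± 0.10 in MB468 and 3.05 ± 0.11 in R8 (adjusted p = 5.45e-12 and 4.53e-14) and fell from 0.5 to 2 h (log2 -1.65 and -3.41). MYC, an immediate early transcription factor gene, rose at 0.5 h (log2 1.36 and 1.42).

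Over the 24 libraries, which share 2 lines and 4 times and are not independent, the 9 genes did not follow 1 pattern. On log2 CPM values Pearson's r was 0.91 between ID2 and ID4, 0.01 between ID3 and ID4, 0.56 between SMAD7 and BAMBI, and -0.67 between ID1 and TGFB2. The genes most like each member, among 9874 or 9875 genes whose log2 CPM averaged 3 or more, were TOB1 for ID1 (r = 0.856), NCOA7 for ID2 (r = 0.974), DUSP4 and CDKN1A for ID3 (r = 0.933 and 0.92), and MTHFD2 for ID4 (r = 0.964). For the feedback genes they were TTC14 for SMAD6 (r = 0.843), ARID4A for SMAD7 (r = 0.946), MFAP3L for SKIL (r = 0.844), ANKRD13D for BAMBI (r = 0.947), and SH3BP4 for TGFB2 (r = 0.918). The next were KLF3 and PHF21A for ID1, LRRCC1 and ZC3H12A for ID2, E2F2 for ID3, DSN1 and GRB7 for ID4, C9orf3 and CHTF18 for SMAD6, GLTSCR1L and DCP1A for SMAD7, ZBTB41 and MAP3K9 for SKIL, MID1IP1 and ZCCHC8 for BAMBI, and ANKRD33B and C22orf29 for TGFB2. No member was among the 3 genes most like another member.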

How the data were processed

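RNA of MB468 and MB468res-R8 cells was measured in 24 libraries of poly(A)-selected RNA (TruSeq kit v2 with ERCC spike-in RNAs). Per the paper's methods and the submitters' processing notes, the authors used HISAT2 2.1.0 on single-end reads, with GRCh38/hg38 plus the ERCC sequences as reference, and featureCounts (Subread 1.5.3) for counting, and the deposited table holds raw counts of 26645 genes and 92 spike-ins. The gene annotation and strand setting are not given in the sources used here. A deposited table of DESeq2-normalised counts for part of the libraries and one of the authors' own DESeq2 comparison (fold changes and p-values) were not used.

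The analysis used edgeR 4.0.16 and limma 3.58.1 under R 4.3.3. Here filterByExpr (minimum count 10, minimum total 15) without spike-ins kept 14741 genes, TMM factors scaled libraries, and every comparison is a contrast of 1 robust quasi-likelihood fit with 8 group means. Depth (11745553 to 36496655 counts) sets the counting error of low genes such as ID1 and ID2. Groups and the replicate number come from the sample titles, and same-numbered libraries did not deviate together (in no comparison did every pair's correlation exceed 0.1), so they were not paired. All libraries of a group differed beyond sampling noise. Per-kilobase levels use canonical GENCODE transcripts, promoters come from RefSeq (GRCh38.p14), and all 9 members matched both. The genes, lists, tests, and alternatives were chosen with earlier results of these data known. Named genes are the 9 members, SMAD4, the other signaling SMADs and type I and II receptors, list genes called with an absolute log2 fold change of at least 1 (at most 4 per list and direction), and the 3 genes most like each member. The values of 1 list gene are not reported here. Alternatives were DESeq2 1.42.0 size factors and Wald test, spike-in totals, 2 other filters, fewer libraries, a replicate block, an adjusted p of 0.01, and leaving out each library. The code was tested on simulated data.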

Additional observations from a re-analysis of the deposited data

Results flagged for a closer look

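The 9 values here are responses to Met-Hcy+ medium that differed between the lines by a test of the difference itself (R8 minus MB468, log2, edgeR's quasi-likelihood test, adjusted over 14741 genes). At 0.5 h these were ID3 at 0.92 and SMAD7 at 1.03, both higher in R8, and BAMBI at -0.92, which with spike-in totals as library sizes was -0.66 and not called (adjusted p = 0.0975). All 3 of these R8 libraries were above all 3 at 0 h for each of these genes, and in MB468 ID3 alone was not called at that time. At 2 h they were SMAD7 at -0.70 and BAMBI at -0.66, both without a call under that scaling (adjusted p = 0.264 and 0.272). At 12 h they were ID4 at -0.997, SKIL at -0.39, BAMBI at -3.11, and TGFB2 at -0.86, of which SKIL had no call with spike-in totals (-0.13, adjusted p = 0.622). In ID4, BAMBI, and TGFB2 MB468 was called higher and R8 lower at 12 h. All 9 were called in each fit that left out 1 of the libraries compared.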

How the results depend on the processing

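Of the 126 values (9 genes in 14 comparisons), DESeq2's size factors left 125 on their side of the threshold with their direction, DESeq2's Wald test 123, a replicate block 124, a filter of 10 counts in each of the libraries 124, no low-count filter and an adjusted p of 0.01 117 each, fits to only the libraries compared 116, and spike-in totals 99. Leaving out 1 library changed 36 of 918 values, 30 of them to no call, and reversed 0. Spike-in totals lowered the median of all genes by 0.31 at 0 h and by 0.20, 0.42, and 0.23 in MB468 at 0.5, 2, and 12 h, against 0.04, -0.04, and 0.00 in R8, and moved the differences between the lines up by 0.26, 0.38, and 0.20. The share of calls that were higher then went from 49.4% to 15% at 0 h, from 51.8% to 14%, 54.3% to 2.52%, and 51% to 30% in MB468 at 0.5, 2, and 12 h, from 41.4% to 79.2%, 43.2% to 93%, and 46.3% to 69.9% for the differences between the lines, from 49.7% to 18.3% and 49.6% to 65.4% between consecutive times in MB468, and from 49.3% to 35.5% from 0.5 to 2 h in R8. With these totals 4 of the 9 genes in place of 7 were called at 0 h, 3 in place of 5 in R8 at 2 h, 0 in place of 2 for the difference at 2 h, and 4 in place of 7 from 0.5 to 2 h in R8. Of all genes they called 51.8%, 1.22%, 6.32%, and 16.1% in these comparisons. TGFB2 at 0 h turned to -0.0723 (0.24 relative to the median of all genes). Without the low-count filter 4 genes were called for the difference at 2 h, against 4.47% of all genes. At an adjusted p of 0.01 4 were called at 0 h and 3 in R8 at 2 h. The number of genes called with 1 library left out was 4 to 6 at 0 h (4 without MB468 replicate 1 at 0 h) and 2 to 5 in R8 at 2 h (2 without replicate 2 at 2 h, 3 without replicate 1 or 3 at 0 h), and within 1.5 times the reported number in the other comparisons. The share of all genes called was not computed at an adjusted p of 0.01 or with 1 library left out. The causes were not tested. With the replicate block 2 calls were lost, ID1 in MB468 at 12 h (0.45, adjusted p = 0.0587) and in R8 at 2 h (0.66, adjusted p = 0.0724), and the correlation of same-numbered libraries ranged from -0.0294 to 0.466 in R8 at 2 h, where its mean was highest (0.277). Of the lists' counts of called genes, 33 moved by over 1.5 times with spike-in totals and 0 with the replicate block. ID1 and ID2, at 35 to 296 and 16 to 441 raw counts, have the widest intervals of the 9.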
